A study of Homo sapiens with 14 samples.

Results

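Tumour cells can hold back an immune attack through proteins they display or enzymes they make, and 8 genes of this kind were followed here: CD274, PDCD1LG2, CD276, VTCN1, CD47, PVR, LGALS9 and IDO1. They were chosen by name, with earlier results of these data known, from the 24461 genes listed in each RNA table. All were measured in U251MG, an established human glioblastoma cell line labelled WT in every library. Radioresistant cells, irradiated with 2 Gy of X-rays 30 times for a total of 60 Gy, were set against control cells. In a second table, radioresistant cells carrying a short hairpin RNA against IFI16 (shIFI16) were set against radioresistant cells carrying the hairpin shNC. IFI16 encodes a sensor of DNA, and the series asked what it does in radioresistance. Each of these 4 groups held 3 RNA libraries, and 1 radioresistant and 1 control library were made by ATAC-seq, which marks open chromatin. The labels name 1 hairpin against IFI16 and no rescue, and do not say whether a line was 1 clone or whether replicates were separate cultures. Loss of IFI16 and any other difference between the hairpin lines cannot be told apart here, and the p-values reflect spread among libraries that may be technical.

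In the body, CD274 (PD-L1) and PDCD1LG2 (PD-L2) bind the receptor PD-1 on T cells and dampen their activity, and CD276 (B7-H3) and VTCN1 (B7-H4) are relatives of the same B7 family. CD47 binds SIRPA on macrophages and acts as a signal against being engulfed, and PVR (CD155) is shared by the inhibitory receptors TIGIT and CD96 and the activating receptor CD226 of T and NK cells. The lectin galectin-9, made from LGALS9, binds the receptor TIM-3 (HAVCR2), and IDO1 is an enzyme that turns tryptophan into kynurenine, which starves and restrains T cells. Several of these genes, IDO1 and CD274 above all, are known to respond to interferons through STAT and IRF transcription factors.

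Values were deposited as TPM, a measure of relative abundance corrected for transcript length, so levels of different genes can be set beside each other, but the sequencing depth is unknown. Between 12361 and 13016 genes reached 1 TPM in a library. IFI16 stood at 250.8, 309 and 243 TPM in radioresistant libraries, against 70.3, 71.1 and 49.6 TPM in control libraries. It stood at 7.68, 7.90 and 6.71 TPM in shIFI16 libraries, against 125, 140 and 127 TPM in shNC libraries, so the targeted gene was low in every library labelled with its hairpin. Columns carry codes only, which were matched to groups through the labels and the ATAC-seq file names, and for control and radioresistant columns no targeted gene offers such a check. All 8 glioma cell markers were present at 1 TPM or more in some library of the first table. GFAP, the astrocyte filament gene, averaged 80.6 ± 22.9 TPM in radioresistant cells and 4012 ± 112 TPM in control cells (SD, n = 3 each). Of the 8 glioma markers 7 fell in radioresistant cells (median -1.40), beside 27% of all 13127 tested genes (median -0.11). FABP7 fell by 2.45 (limma adjusted p = 4.0e-07) and SOX2 fell by 1.48 (adjusted p = 2.9e-05). S100B, counted among the 7, was under 1 TPM in every radioresistant library. It passed the filter through control libraries alone, which set its direction. After knockdown 3 of 7 tested markers rose and 2 fell (median 0.12), beside 16.6% and 16.3% of all tested genes (median 0.02). GFAP rose by 3.56 (adjusted p = 3.6e-12), to 31.1 ± 1.67 TPM in shIFI16 cells against 1.73 ± 0.344 TPM in shNC cells. Both means lay below the 80.6 TPM of radioresistant cells without a hairpin, which comes from the separately normalized first table. VIM fell by 0.49 (adjusted p = 4.5e-05) and NES fell by 0.38 (adjusted p = 7.6e-04). These markers moved in the same comparisons as the checkpoint genes described below, and their part in those results was not tested.

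Promoters of 3 members are printed from RefSeq (GRCh38.p14), because they show the member with an ATAC-seq summit at its start (CD274), the member with the largest rise (LGALS9) and a member that rose and held no match to the motifs searched (PVR). Each holds 250 bases before the start site and 50 bases from it on, 5′ to 3′. Capitals mark GAAANNGAAA on either strand, the core of the interferon-stimulated response element, and TTCNNNGAA, the gamma-activated site. All 3 genes lie on the plus strand, at chr9:5450292-5450591 for CD274, chr17:27630938-27631237 for LGALS9 and chr19:44643660-44643959 for PVR.
CD274: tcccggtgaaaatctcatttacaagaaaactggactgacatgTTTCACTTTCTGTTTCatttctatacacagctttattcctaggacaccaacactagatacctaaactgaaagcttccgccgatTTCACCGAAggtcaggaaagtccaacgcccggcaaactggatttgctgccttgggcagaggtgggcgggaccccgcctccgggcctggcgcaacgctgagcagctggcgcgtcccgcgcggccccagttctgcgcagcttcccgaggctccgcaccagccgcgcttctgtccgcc
LGALS9: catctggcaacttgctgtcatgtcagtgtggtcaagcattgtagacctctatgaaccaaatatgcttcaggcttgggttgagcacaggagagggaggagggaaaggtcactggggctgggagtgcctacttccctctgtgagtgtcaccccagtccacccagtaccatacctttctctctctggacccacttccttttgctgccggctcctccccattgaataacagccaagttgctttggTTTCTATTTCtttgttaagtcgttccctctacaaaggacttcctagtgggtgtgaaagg
PVR: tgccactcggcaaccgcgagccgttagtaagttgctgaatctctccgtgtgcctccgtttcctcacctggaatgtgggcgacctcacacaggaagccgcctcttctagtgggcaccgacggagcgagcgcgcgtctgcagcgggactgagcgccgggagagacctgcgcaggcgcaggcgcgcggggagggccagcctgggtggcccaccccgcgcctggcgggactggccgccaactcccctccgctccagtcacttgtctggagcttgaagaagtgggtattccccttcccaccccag

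The start site base is counted as 0. In CD274 a pair of overlapping GAAANNGAAA matches on the other strand ran from -208 to -199 and from -202 to -193, and TTCNNNGAA ran from -125 to -117. In LGALS9 GAAANNGAAA ran from -9 to 0 on the other strand, ending on the start site base. Neither motif was found in the tabled promoters of PVR, CD47, CD276 (2 promoters) and VTCN1, and the table has no entry for PDCD1LG2 and IDO1. Of all 35116 promoters in the table, 3.57% held GAAANNGAAA and 7.66% held TTCNNNGAA. A match describes the letters of this window and does not show binding.

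Radioresistant cells had higher transcript levels of 5 members than control cells: galectin-9, IDO1, PD-L2, PVR and CD47. PD-L1 and CD276 did not pass the test, and VTCN1 was too low to test. Of all 13127 genes tested, 16.9% passed upward and 27% passed downward. With median-ratio scaling in place of the deposited values, the median difference of all genes moved to 0.01 from -0.11 (log2), and 50.6% in place of 38.5% of the calls were upward. The median of the 7 tested members was 0.94, with IDO1 among them, a gene that passed the filter on low values only through the radioresistant libraries. Groups did not overlap for 5 of the 7 tested members, against 53.1% of all tested genes.

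**Figure D1:**
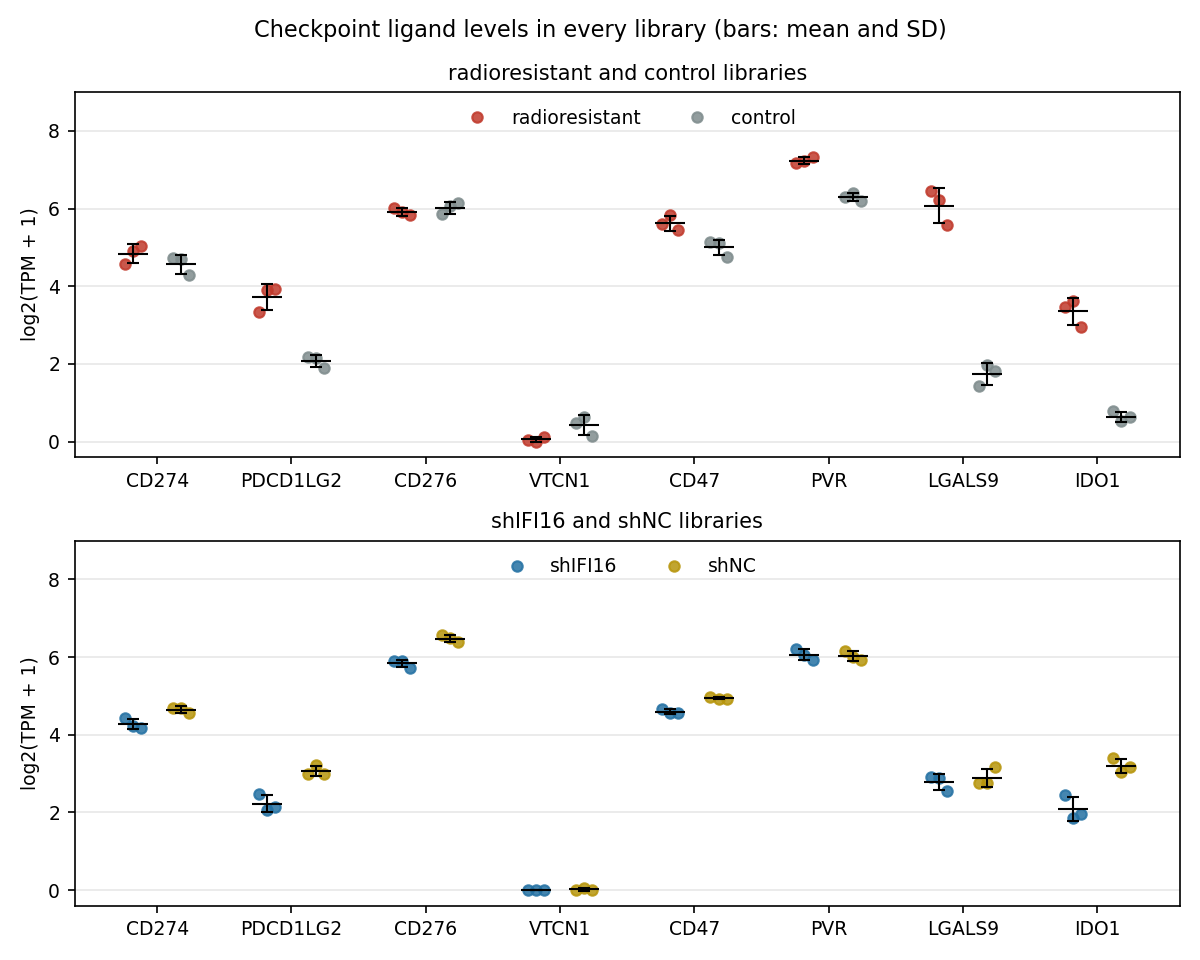
Level of each of the 8 genes, as log2(TPM + 1), in every library, with radioresistant beside control libraries above and shIFI16 beside shNC libraries below. Points are libraries and bars are the mean and SD of 3. LGALS9, IDO1 and PDCD1LG2 stand far apart between radioresistant and control libraries, while CD276 and CD274 overlap there.

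Both PD-1 ligands were present, and of the pair only PDCD1LG2 passed the test. CD274 stood at 22.7, 29.1 and 31.8 TPM in radioresistant libraries, against 25.39, 24.99 and 18.56 TPM in control libraries. The groups overlapped, and the log2 difference was 0.27 (SE 0.17, limma adjusted p = 0.21). Its 95% interval ran from -0.10 to 0.63, so a rise of up to 1.55-fold in TPM + 1 is within the error. PDCD1LG2 stood at 9.18, 13.9 and 14.3 TPM in radioresistant libraries, against 3.54, 3.48 and 2.74 TPM in control libraries. Every radioresistant library lay above every control library, and the gene rose by 1.64 (log2, SE 0.18, adjusted p = 5.6e-05). Taken within each library, PD-L2 transcripts amounted to 40.5 to 47.7% of PD-L1 transcripts in radioresistant cells and to 13.9 to 14.8% in control cells. On the log2(TPM + 1) scale, which shrinks a ratio of low levels, PDCD1LG2 minus CD274 was 1.38 higher in radioresistant than in control cells. An exact two-sided permutation test gave p = 0.1, the smallest that 3 against 3 libraries can give. The contrast of the 2 genes was not planned, and this test could not pass the threshold.

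**Figure D2:**
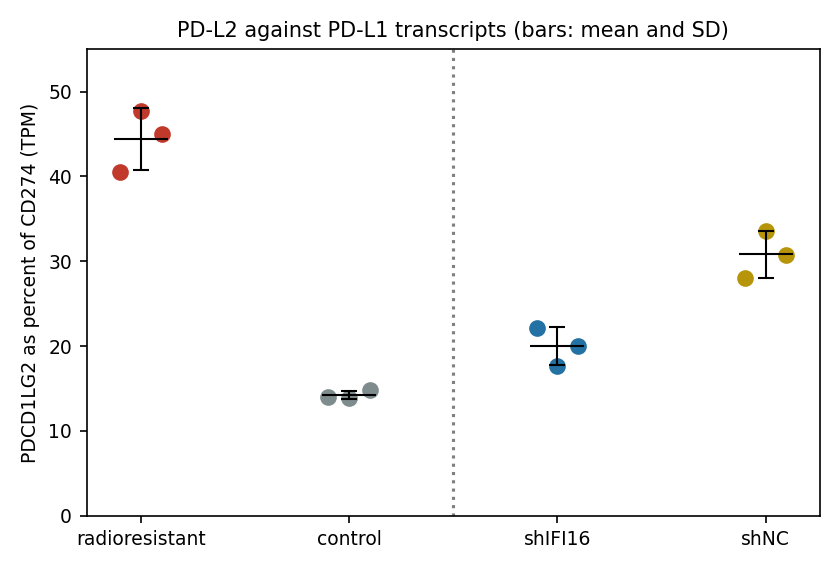
PDCD1LG2 (PD-L2) as a percentage of CD274 (PD-L1), both in TPM, in each of the 12 libraries, with the mean and SD of each group. The dotted line parts the tables. Radioresistant libraries lie between 40.5 and 47.7% and control libraries between 13.9 and 14.8%, while shIFI16 libraries lie between 17.7 and 22.2% and shNC libraries between 28.1 and 33.6%.

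Among the other B7 relatives, CD276 did not pass the test and VTCN1 was too low for it. CD276, a B7 protein found on many tumours, stood at 63.8, 58.7 and 55.8 TPM in radioresistant libraries, against 56.7, 65.8 and 69.1 TPM in control libraries. Its log2 difference was -0.10 as deposited (SE 0.12, adjusted p = 0.52, 95% interval -0.36 to 0.16) and 0.02 with median-ratio scaling. VTCN1 was near the floor, at 0.0293, 0 and 0.0914 TPM in radioresistant libraries and 0.392, 0.556 and 0.0982 TPM in control libraries. All of these lay under 1 TPM, and the radioresistant libraries lay below the control libraries with hardly a gap. The exact two-sided permutation test gave p = 0.1, the smallest it can give with 3 against 3 libraries.

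CD47 and PVR were both higher in radioresistant cells. CD47 stood at 48.0, 55.6 and 42.3 TPM in radioresistant libraries, against 34.0, 33.3 and 26.2 TPM in control libraries, and rose by 0.63 (log2, SE 0.15, adjusted p = 0.0058). PVR stood at 142, 148 and 159 TPM in radioresistant libraries, against 78.1, 82.9 and 72.6 TPM in control libraries, and rose by 0.94 (log2, SE 0.11, adjusted p = 6.4e-05). Neither gene overlapped between the groups. PVR had the highest level of the 8 genes in both groups of this table.

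Galectin-9 changed most. LGALS9 stood at 86.0, 73.2 and 46.7 TPM in radioresistant libraries, against 1.69, 2.91 and 2.55 TPM in control libraries. It rose by 4.34 (log2, SE 0.22, adjusted p = 2.0e-07), and 0.137% of all tested genes rose as far or farther. The mean level was 28.8-fold higher in radioresistant cells. Values of LGALS9 are uncertain in part because LGALS9B and LGALS9C are near copies. Those copies were listed at 0.205 TPM or less and 0.228 TPM or less in all 12 libraries.

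IDO1 was near the filter in control cells. It stood at 10.1, 11.4 and 6.78 TPM in radioresistant libraries, against 0.713, 0.433 and 0.556 TPM in control libraries. The log2 difference was 2.71 (SE 0.19, adjusted p = 2.3e-06). As all control libraries lay under 1 TPM, the filter set the direction, and on this scale the change of so low a gene is understated. The mean level was 16.6-fold higher in radioresistant cells. In these bulk libraries, more cells making a transcript and more transcript per cell cannot be told apart, here and for the other members.

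**Figure D3:**
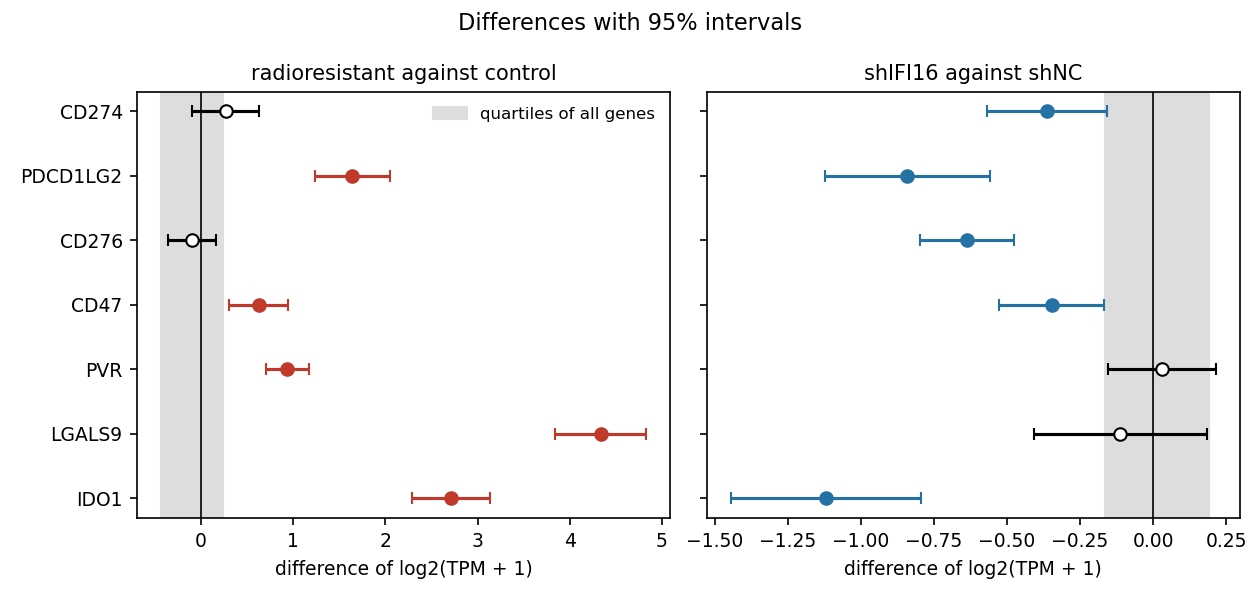
Difference of log2(TPM + 1) with its 95% interval for the 7 tested members, radioresistant against control on the left and shIFI16 against shNC on the right, on separate axes. Filled points passed the test and open points did not, and the grey band spans the quartiles of all tested genes. LGALS9 lies at 4.34 on the left and at -0.11 on the right.

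Knockdown of IFI16 went with lower transcript levels of 5 members: IDO1, PD-L2, CD276, PD-L1 and CD47. Galectin-9 and PVR did not pass the test, and VTCN1 was again too low to test. Of all 12567 genes tested here, 16.6% passed upward and 16.3% passed downward. The median of the 7 tested members was -0.36, beside 0.02 for all tested genes. Groups did not overlap for 5 of the 7 tested members, against 44.8% of all tested genes.

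Among the PD-1 ligands both fell. CD274 stood at 20.6, 17.8 and 17.2 TPM in shIFI16 libraries, against 24.8, 24.9 and 22.5 TPM in shNC libraries, and fell by 0.36 (log2, SE 0.097, adjusted p = 0.0090). PDCD1LG2 stood at 4.56, 3.15 and 3.44 TPM in shIFI16 libraries, against 6.97, 8.36 and 6.92 TPM in shNC libraries, and fell by 0.84 (log2, SE 0.13, adjusted p = 1.6e-04). Mean levels in shIFI16 cells were 0.501 times those in shNC cells for PDCD1LG2 and 0.769 times for CD274. PD-L2 transcripts amounted to 17.7 to 22.2% of PD-L1 transcripts in shIFI16 cells and to 28.1 to 33.6% in shNC cells. On the log2(TPM + 1) scale PDCD1LG2 minus CD274 differed by -0.48 between shIFI16 and shNC cells, and the exact two-sided permutation test gave its smallest possible p = 0.1.

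CD276 stood at 58.5, 58.2 and 51.9 TPM in shIFI16 libraries, against 93.3, 88.3 and 82.2 TPM in shNC libraries. It fell by 0.64 (log2, SE 0.076, adjusted p = 1.0e-05), with no overlap between the groups. VTCN1 was listed at 0 in all 3 shIFI16 libraries and in 2 of the 3 shNC libraries, with 0.0443 TPM in the other one. CD47 stood at 24.4, 22.4 and 22.6 TPM in shIFI16 libraries, against 30.2, 29.4 and 29.4 TPM in shNC libraries. It fell by 0.35 (log2, SE 0.085, adjusted p = 0.0051), and its mean level was 0.780 times that in shNC cells.

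The largest fall of the set was that of IDO1. It stood at 4.42, 2.61 and 2.89 TPM in shIFI16 libraries, against 9.54, 7.26 and 7.95 TPM in shNC libraries. IDO1 fell by 1.12 (log2, SE 0.15, adjusted p = 5.1e-05), to a mean level 0.401 times that in shNC cells, and 0.899% of all tested genes fell as far or farther. PVR stood at 73.1, 65.0 and 59.8 TPM in shIFI16 libraries, against 70.8, 62.6 and 60.1 TPM in shNC libraries. Its log2 difference was 0.03 (SE 0.086, adjusted p = 0.82). The 95% interval from -0.15 to 0.21 spans 0.900-fold to 1.16-fold on the scale of TPM + 1. It reflects spread among libraries that may be technical. LGALS9 stood at 6.462, 6.404 and 4.832 TPM in shIFI16 libraries, against 5.72, 5.77 and 7.94 TPM in shNC libraries. The log2 difference was -0.11 (SE 0.14, adjusted p = 0.58, 95% interval -0.41 to 0.18).

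PDCD1LG2 and CD47 passed in both comparisons, higher in radioresistant than in control cells and lower in shIFI16 than in shNC cells. IDO1 had the same pair of directions, of which the filter fixed that between radioresistant and control cells. LGALS9 and PVR passed between radioresistant and control cells and did not pass after knockdown, and CD274 and CD276 did the reverse. Whether a gene's change differed between the comparisons was not tested, since the tables were normalized separately. Levels set across the tables carry the same limit. They differed most for LGALS9, which averaged 68.6 ± 20.0 TPM in radioresistant cells without a hairpin and 6.48 ± 1.27 TPM in shNC cells, both radioresistant by label (SD, n = 3 each). PVR averaged 149.8 ± 8.42 TPM in radioresistant cells without a hairpin and 64.5 ± 5.56 TPM in shNC cells. CD274 averaged 27.8 ± 4.68 TPM and 24.1 ± 1.39 TPM in these same groups.

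Ranked by level, PVR led in radioresistant, control and shIFI16 cells, and CD276 led in shNC cells. In radioresistant cells the order was PVR, LGALS9, CD276, CD47, CD274, PDCD1LG2, IDO1 and VTCN1, in which LGALS9 overlapped CD276 and PDCD1LG2 overlapped IDO1. There LGALS9 (46.7 to 86.0 TPM) also overlapped CD47 (42.3 to 55.6 TPM), which was not its neighbour. In control cells LGALS9 came below PDCD1LG2, with overlap, and IDO1 overlapped VTCN1 at the bottom. In shIFI16 cells PDCD1LG2 and IDO1 overlapped, and in shNC cells IDO1, PDCD1LG2 and LGALS9 overlapped as neighbours. Every other neighbour in these orders was separated by the range of the libraries.

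Genes with the most similar pattern were found over all 12 libraries, as the root mean square difference of log2(TPM + 1) after taking the mean of each table away, among 12358 genes tested in both tables. For LGALS9 the closest were APOL3 (0.22), IFI6 (0.26) and IFI27 (0.27), beside a median of 1.60 over all genes. For IDO1 they were UBA7 (0.12), ACSL5 (0.15) and IFIT2 (0.15), beside a median of 1.10. For PDCD1LG2 they were FGF5 (0.13), BCAR3 (0.15) and SHISA2 (0.16), beside a median of 0.73. TLR4 (0.072) was closest to CD274, FZR1 (0.050) to CD276, SLC46A3 (0.048) to CD47 and ATP11A (0.067) to PVR. Members with small changes have many close genes, and these distances are a description with no test.

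Chromatin data were thin at these genes. MACS2 summits numbered 12877 in the radioresistant library and 2454 in the control library, so most start sites had none in either. Among the 6 members whose start site the promoter table gives, CD274 alone had a summit within 5 kb in the radioresistant library, and none had one in the control library. Over all 35116 start sites the shares were 22.4% in the radioresistant library and 4.23% in the control library. That summit lay at position 5450616 of chromosome 9, 74 bases into the transcribed side of the CD274 start site printed above, with an authors' score of 5.33. Another at 5437925, at -12617 from the start site, scored 9.58. PDCD1LG2 held summits at 5563022 (score 5.00) and 5569493 (score 7.65) inside its span on chromosome 9 (5510531 to 5571282) in the radioresistant library, and none there in the control library. A summit inside VTCN1 appeared in both libraries, at 117172202 with a score of 12.2 in the radioresistant library and at 117172181 with a score of 3.36 in the control library. With 1 library each and unequal numbers of summits, a missing summit does not show closed chromatin, and no difference was tested.

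Genes around the 8 members were described by lists. Over all tested genes 16.9% passed upward and 27% downward in radioresistant against control cells. After knockdown these shares were 16.6% and 16.3%. A list count near these shares is no result about the list, and no list was tested as a set. Among 15 other inhibitory ligands, 7 were tested in radioresistant against control cells, of which 2 rose and 3 fell (median -0.15). HLA-E, which engages the NK receptor NKG2A, rose by 1.57 (SE 0.14, adjusted p = 1.5e-05), and NCR3LG1, listed here as a B7 relative although it activates NK cells through NKp30, rose by 1.34 (SE 0.14, adjusted p = 4.9e-05). CD24, another signal against engulfment, fell by 1.59 (adjusted p = 1.3e-05), and LGALS3 (galectin-3) fell by 0.85 (adjusted p = 0.0017). After knockdown 9 were tested, of which 1 rose and 2 fell (median -0.09). CD24 rose by 1.14 (adjusted p = 1.6e-05), while TNFRSF14, the ligand of BTLA, fell by 0.96 (adjusted p = 2.1e-04). TNFRSF14 was near the filter, at 0.836 ± 0.181 TPM in shIFI16 cells against 2.59 ± 0.642 TPM in shNC cells (SD, n = 3 each). The shNC libraries alone were enough for it to pass the filter. LGALS3 fell by 0.21 (adjusted p = 0.019), a call that ended in 4 of 12 alternatives, with an adjusted p of up to 0.070.

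Activating ligands, listed as 16 genes, held 4 that rose and 1 that fell among 7 tested in radioresistant cells (median 0.43). Over all tested genes the shares were 16.9% and 27%. MICB and MICA, stress ligands of the NK receptor NKG2D, rose by 3.20 (adjusted p = 8.1e-08) and 1.01 (adjusted p = 5.6e-05), and ULBP2, of the same receptor, rose by 0.78 (adjusted p = 6.1e-04). The remaining call upward, CD70, the ligand of CD27, was near the threshold. It rose by 0.43 (adjusted p = 0.047), and its groups overlapped. MICB averaged 32.9 ± 1.04 TPM in radioresistant cells and 2.72 ± 0.542 TPM in control cells (SD, n = 3 each). TNFSF4, which encodes OX40 ligand, fell by 2.60 to 0.872 ± 0.312 TPM in radioresistant cells, against 10.3 ± 0.805 TPM in control cells (adjusted p = 1.0e-06). The control libraries alone were enough for TNFSF4 to pass the filter. After knockdown 3 of 6 tested fell and 0 rose (median -0.27), beside 16.3% and 16.6% of all tested genes. CD70 fell by 0.84 (adjusted p = 2.7e-08), MICB by 0.60 (adjusted p = 1.5e-04) and ULBP2 by 0.40 (adjusted p = 0.0023). CD70 averaged 634 ± 19.6 TPM in shIFI16 cells and 1138 ± 49.9 TPM in shNC cells. CD80 and CD86, the classical costimulators of antigen-presenting cells, did not reach 1 TPM in any library.

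Among 21 genes that regulate PD-L1, all were tested in both tables. In radioresistant cells 6 rose, 5 fell and 10 did not pass (median 0.01), while 16.9% of all tested genes rose and 27% fell. MYC rose by 1.64 (adjusted p = 6.1e-06), IRF9 by 1.34 (adjusted p = 2.9e-05) and the STAT inhibitor gene SOCS1 by 1.28 (adjusted p = 0.0023). The 5 that fell were CMTM4 (-0.68), IFNAR2 (-0.60), IFNAR1 (-0.58), STAT3 (-0.35) and IFNGR2 (-0.34). After knockdown 2 rose, 8 fell and 11 did not pass (median -0.11), while 16.6% of all tested genes rose and 16.3% fell. CMTM6, which keeps PD-L1 protein from being degraded, fell by 1.14 (SE 0.081, adjusted p = 3.3e-08), to 51.2 ± 5.59 TPM in shIFI16 cells against 114 ± 4.96 TPM in shNC cells. IRF1, the factor through which interferon gamma induces CD274, fell by 0.67 (adjusted p = 8.1e-06), and the kinase gene TYK2 fell by 0.45 (adjusted p = 4.9e-04). In radioresistant against control cells IRF1 rose by 1.23 (adjusted p = 3.2e-05), while CD274 did not pass there. The part of IRF1 in the level of CD274 was not tested. After knockdown STAT3 rose by 0.63 (adjusted p = 5.8e-05).

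**Figure D4:**
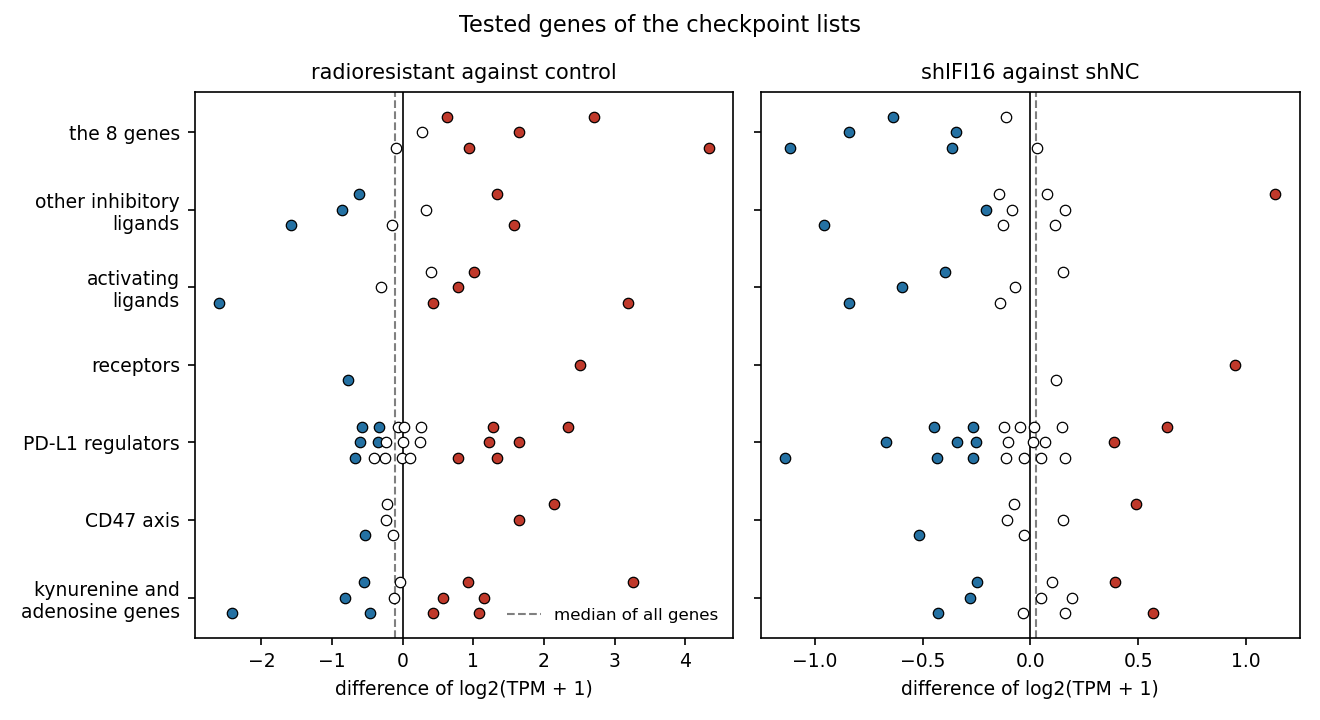
Difference of log2(TPM + 1) for every tested gene of the 8 members and 6 related lists, radioresistant against control on the left and shIFI16 against shNC on the right, on separate axes. Red points passed upward, blue points passed downward and white points did not pass, and the dashed line is the median of all tested genes. Height within a row has no meaning.

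Around CD47, 2 of 6 tested genes rose and 1 fell in radioresistant cells (median -0.18), beside 16.9% and 27% of all tested genes. THBS1 (thrombospondin-1), a matrix ligand of CD47, rose by 2.14 (adjusted p = 1.5e-07), to 445 ± 33.9 TPM in radioresistant cells against 99.98 ± 4.38 TPM in control cells. MYC, given above, was also on this list, and NRF1, a transcription factor, fell by 0.53 (adjusted p = 0.0070). After knockdown THBS1 rose by 0.49 (adjusted p = 0.0039) and LRP1, the receptor that reads the opposing engulfment signal calreticulin, fell by 0.52 (adjusted p = 0.0071). The other 4 did not pass (median of the list -0.05). Of all tested genes 16.6% rose and 16.3% fell after knockdown. QPCTL, whose enzyme modifies CD47 so that SIRPA can bind it, had log2 differences of -0.24 (adjusted p = 0.14) in radioresistant and 0.15 (adjusted p = 0.26) in shIFI16 cells. It was named after its values were seen.

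Around IDO1, a list held 18 genes that make, use or transport tryptophan products or make adenosine. In radioresistant cells 12 were tested, of which 6 rose and 4 fell (median 0.19), beside 16.9% and 27% of all tested genes. NT5E (CD73), which makes the immunosuppressive nucleoside adenosine, rose by 3.26 (SE 0.15, adjusted p = 1.2e-07), to 147 ± 20.4 TPM in radioresistant cells against 14.6 ± 2.58 TPM in control cells. SLC3A2 and SLC7A5, the chains of the transporter that brings tryptophan in, rose by 1.15 (adjusted p = 5.0e-05) and 1.08 (adjusted p = 5.2e-05). QPRT, which takes kynurenine products on to NAD, fell by 2.42 (adjusted p = 1.2e-05). It lay under 1 TPM in all radioresistant libraries and passed the filter only through control libraries, which set its direction. After knockdown 2 of 10 tested rose and 3 fell (median 0.08), beside 16.6% and 16.3% of all tested genes. SLC7A5 rose by 0.57 (adjusted p = 1.6e-04) and the kynurenine formamidase gene AFMID by 0.39 (adjusted p = 0.0057), while NT5E fell by 0.43 (adjusted p = 1.2e-04) and WARS, a tryptophanyl-tRNA synthetase gene, by 0.28 (adjusted p = 0.0096). IDO2 was listed at 0 in all libraries of the first table and TDO2, another tryptophan dioxygenase gene, fell by 0.54 (adjusted p = 0.038), to 0.682 ± 0.395 TPM in radioresistant cells against 1.41 ± 0.174 TPM in control cells. TDO2 was near the filter, and the control libraries alone were enough for it to pass. IDO2 and TDO2 were named after their values were seen.

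Of 13 genes that encode receptors of these ligands, 11 stayed under 1 TPM in every library of each table, with PDCD1, which encodes PD-1, CTLA4, ICOS and SIRPG listed at 0 throughout. SIRPA, the receptor of CD47, rose by 2.52 in radioresistant cells (adjusted p = 7.4e-07), to 8.15 ± 1.14 TPM against 0.593 ± 0.0520 TPM in control cells. No control library reached 1 TPM, so its direction was fixed by the filter. After knockdown SIRPA rose by 0.95 (adjusted p = 3.3e-05). CD44, which binds galectin-9 and is abundant in glioma, fell by 0.77 in radioresistant cells (adjusted p = 2.7e-04). Summed over 18 immune cell markers, levels ran from 20.4 to 24.6 TPM in radioresistant libraries, 16.3 to 22.0 TPM in control libraries, 14.8 to 18.4 TPM in shIFI16 libraries and 38.1 to 40.6 TPM in shNC libraries. CD68, a lysosomal gene not restricted to immune cells, fell by 1.25 after knockdown (adjusted p = 5.5e-08), to 15.6 ± 1.44 TPM in shIFI16 cells against 38.5 ± 1.56 TPM in shNC cells, and held most of these sums. The T cell markers CD3D, CD3E, CD3G and CD2, the B cell marker MS4A1 and the myeloid markers AIF1 and TYROBP were listed at 0 in all 12 libraries. Other markers were low but not absent. The myeloid marker CD14 averaged 1.46 ± 0.484 TPM in radioresistant cells and 0.737 ± 0.255 TPM in control cells. CSF1R, also myeloid, averaged 0.545 ± 0.0812 TPM and 0.520 ± 0.210 TPM there. Of the 18 markers, 16 stayed under 1 TPM in all libraries of the first table and 17 in the second. The part of such cells in the other results was not tested beyond these levels.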

How the data were processed

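The submitters' processing notes name hg38, TopHat, featureCounts, Cufflinks 2.2.1 and Trim Galore 0.6.6 for the RNA reads. The annotation, the strand setting and the tool behind the values were not given in the sources used here. Both tables are named as counts, but the deposited values are TPM: without the date names below, libraries sum to 998100 to 998850. The authors' ATAC-seq summits (MACS2 2.1.4, Bowtie2 2.2.5, SAMtools 1.10, per the submitters' processing notes) carry a score that the layout of the deposited files gives as a -log10 q-value. Columns were matched to samples by group code and replicate number.

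Here log2(TPM + 1) was fitted across all genes within each table with limma 3.58.1 in R 4.3.3 (trend, robust), on genes that reached 1 TPM in 3 or more libraries, after 28 names turned into dates were left out (0.115 to 0.190% of a library's values). Benjamini-Hochberg adjusted p-values had a threshold of 0.05. Depth behind TPM is unknown, so counting error could not be given. The fit was tested on simulated data. Alternatives covered pseudocount, filter, scaling, moderation, replicate block, left-out libraries, and distance and score of summits. The members and lists were chosen with earlier results of these data known. Named were the members, IFI16, up to 4 genes per list and comparison by size among those past the threshold, and the 3 closest genes per member, of which some are given; other genes were added after their values were seen. A gene that the rule names is not reported here. Fold changes of low genes are understated on this scale. Promoters came from RefSeq.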

Additional observations from a re-analysis of the deposited data

How the results depend on the processing

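All calls of the 7 tested members, and the misses, were on the same side of the threshold under every alternative that could be fitted: a pseudocount of 0.1, no filter, median-ratio scaling, quantile normalization, no trend or robust moderation, the replicate block and each library left out. IDO1 went untested in radioresistant against control cells when a radioresistant library was left out, as too few libraries then reached 1 TPM. Its log2 difference of 2.71 was 3.82 with a pseudocount of 0.1. Values of members that had not passed changed sign: CD276 in radioresistant cells was 0.024 with median-ratio scaling, and after knockdown PVR ranged from -0.045 to 0.098 and LGALS9 from -0.18 to 0.023 over all alternatives. PVR was -0.045 without shIFI16 replicate 1 and -0.018 without shNC replicate 3, and LGALS9 was 0.0044 without shIFI16 replicate 3 and 0.023 without shNC replicate 3. The cause was not tested. The replicate block gave 5572 in place of 5762 called genes for radioresistant against control and 5610 in place of 4140 for shIFI16 against shNC, and called the same 5 members in each. Same-numbered libraries deviated together with r from -0.38 to 0.24 in the first table and from 0.028 to 0.22 in the second. Between libraries of different number r ran from -0.43 to 0.39 in the first table and from -0.23 to 0.15 in the second. Not every library correlated best with its own number. With so few libraries these values do not settle whether the numbers pair the samples. Members with a summit within 50 kb of the start site numbered 3 in the radioresistant and 1 in the control library. PDCD1LG2 minus CD274 on the log scale was not a planned comparison, and its alternatives were chosen after seeing the data. For it a pseudocount of 0.1 in place of 1 gave 1.61 in radioresistant against control and -0.61 in shIFI16 against shNC cells. TPM keeps no depth, so levels near 0, as of VTCN1, have no error from counting.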
